A study of Mus musculus with 6 samples.

Results

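Fat cells are a regular part of the bone marrow, which lies directly beneath articular cartilage and the thin plate of bone that carries it. Marrow adipocytes arise from marrow stromal cells that express the leptin receptor, under the transcription factor PPAR gamma and its partners of the C/EBP family. A mature adipocyte stores triglyceride in a droplet coated with perilipins and CIDE proteins, takes up fatty acids released by lipoprotein lipase, and secretes hormones such as adiponectin and leptin. Articular cartilage itself has no fat cells.

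The genes described here are 9 that mark this cell type, taken by symbol from a table of 33971 genes, namely Pparg, Plin1, Plin4, Cidec, Lpl, Fabp4, Adipoq, Cfd and Lep. Of these, 8 were found in the table, and Lep, the gene of leptin, was not analysed here. After the filter on low counts, 20397 genes and 6 of the 9 were tested (Pparg, Plin4, Lpl, Fabp4, Adipoq and Cfd), while Plin1 and Cidec had too few counts. The data are 6 RNA sequencing libraries of articular cartilage from wildtype (WT) mice, with 3 libraries at an age of 2 months and 3 at 18 months, collected to follow expression with age. No treatment, strain or joint surface is given in the sources used here, and nothing says whether 1 library is 1 animal, so p-values measure only the spread between these samples. Each library held 48171507 to 59085179 counts, so that 3 counts, taken as the floor, correspond to 0.0508 to 0.0623 CPM (counts scaled to library size) in a single library.

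Several features of the libraries stand before the results. The study's methods describe male mice. Xist, the transcript of the inactive X chromosome, lay between 89.5 and 100.9 FPKM (fragment counts scaled by transcript length and library size) in the 2-month libraries and at or below 0.0261 FPKM in the 18-month libraries, and the Y-linked genes Ddx3y, Uty, Kdm5d and Eif2s3y were called higher in the 18-month libraries. The 2-month libraries thus go against the stated sex, and age and sex cannot be told apart in any comparison below. A library also holds RNA of several cell types. The summed FPKM of 13 chondrocyte markers was 6359 to 8793 in the 2-month and 71.9 to 216 in the 18-month libraries, and all 13 were called lower at 18 months. The sum of 12 neutrophil markers was 8.93, 3688 and 58.3 FPKM in 2-month replicates 1, 2 and 3 and 42481 to 47450 FPKM in the 18-month libraries. Replicate 2 thus stands apart among the 2-month libraries, and results that rest on it are given below with and without it. In such bulk RNA, fewer cells of a type and less RNA per cell cannot be told apart.

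**Figure D1:**
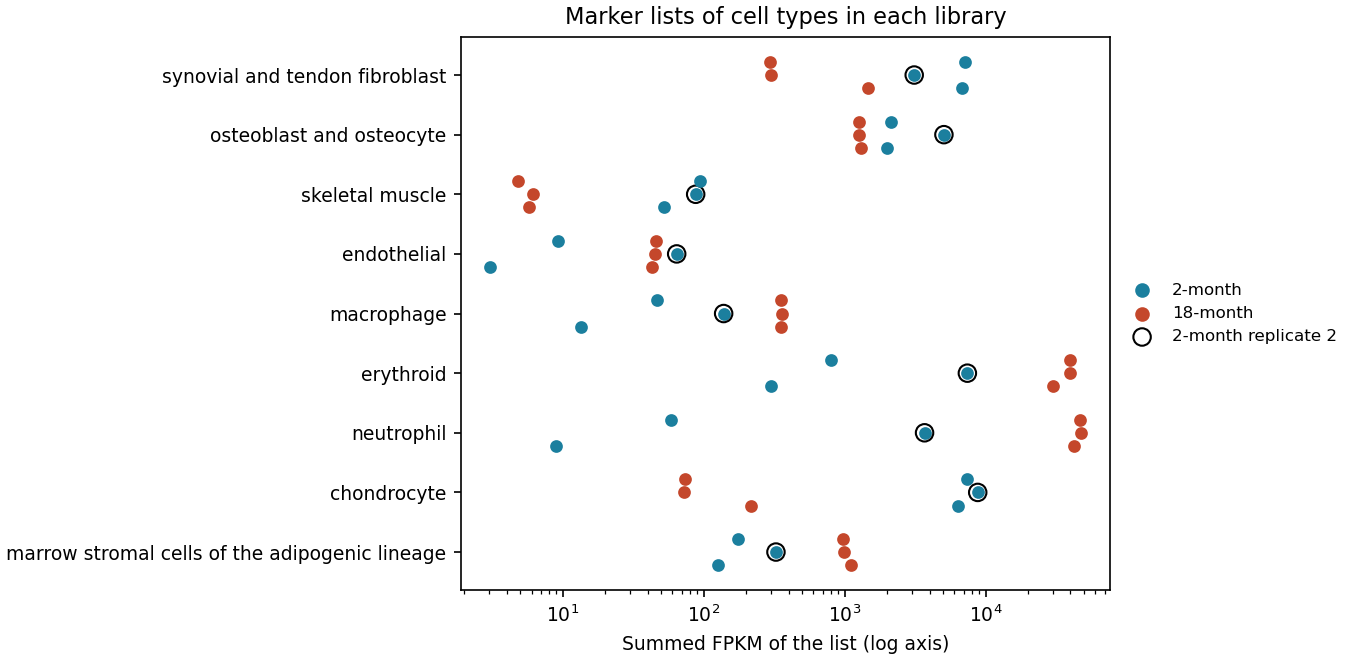
Summed FPKM of each marker list in each library on a log axis, with 1 point per library and 2-month replicate 2 circled. The neutrophil sum ran from 8.93 to 3688 FPKM among the 2-month libraries and from 42481 to 47450 FPKM among the 18-month libraries, and the chondrocyte sum was higher in each 2-month library than in any 18-month library.

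For 4 of these genes, which differ most in what the libraries hold of them, the bases before the start site are shown so that they can be read beside the values. Adipoq differed most as a fold between the 2-month libraries among the genes without a library at 0, Plin4 was the gene called lower, and Plin1 and Cidec, which coat the large droplet of a mature fat cell, stayed near 0. The sequences are from RefSeq on GRCm38.p6, written 5′ to 3′ on the strand of the gene, and end before the first base of the gene in the deposited table. Capitals mark matches to a CCAAT box (CCAAT, either strand) or to a C/EBP-type site (TTGCNNAA, either strand).
Adipoq, chr16:23146286-23146535, plus strand: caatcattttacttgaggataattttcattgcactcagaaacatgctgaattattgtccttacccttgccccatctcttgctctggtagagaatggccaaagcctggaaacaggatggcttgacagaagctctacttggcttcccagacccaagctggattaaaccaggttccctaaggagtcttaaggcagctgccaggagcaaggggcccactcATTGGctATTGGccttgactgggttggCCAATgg
Plin4, chr17:56109804-56110032, minus strand: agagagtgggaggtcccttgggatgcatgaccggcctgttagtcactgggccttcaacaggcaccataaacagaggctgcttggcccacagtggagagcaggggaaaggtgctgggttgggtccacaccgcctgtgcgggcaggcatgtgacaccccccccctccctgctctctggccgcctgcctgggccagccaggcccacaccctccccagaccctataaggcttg
Plin1, chr7:79732836-79733026, minus strand: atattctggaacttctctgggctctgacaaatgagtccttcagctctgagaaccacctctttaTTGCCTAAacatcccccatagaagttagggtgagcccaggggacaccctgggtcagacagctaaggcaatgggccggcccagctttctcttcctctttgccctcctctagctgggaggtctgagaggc
Cidec, chr6:113435761-113436010, minus strand: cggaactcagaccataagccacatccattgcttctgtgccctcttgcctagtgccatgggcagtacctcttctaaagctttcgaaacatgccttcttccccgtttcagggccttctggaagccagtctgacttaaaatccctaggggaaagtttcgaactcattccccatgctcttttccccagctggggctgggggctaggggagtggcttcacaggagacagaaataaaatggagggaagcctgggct
The Adipoq stretch held 3 CCAAT matches, with their 5′ ends 34, 27 and 7 bases upstream of the start. The Plin1 stretch held the match TTGCCTAA, 187 bases upstream of the RefSeq start, and the stretches shown for Plin4 and Cidec held neither motif. Parts of the windows of 250 bases that lie inside the deposited genes are not shown, and these held a CCAAT match 18 bases upstream of the RefSeq start of Plin4 and a second C/EBP-type match, TTGCCCAA, 58 bases upstream of that of Plin1. The window of another RefSeq start of Cidec, also not shown, held a C/EBP-type match, TTGCTCAA, 198 bases upstream. Among 32851 promoters of mouse genes in windows of 250 bases before the start, 33.8% held a CCAAT match and 9.56% a C/EBP-type match. These matches describe letters in the window and no more.

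The 6 tested genes did not move as a group. Fabp4, the fatty acid-binding protein of adipocytes, rose with age and Plin4, a perilipin, fell, while Adipoq, Lpl, Pparg and Cfd were not past the test. A gene was called when its adjusted p was below 0.05 and its log2 fold change past 1 in either direction, in the quasi-likelihood test of edgeR, with p-values adjusted by Benjamini-Hochberg over all tested genes and written below as edgeR adjusted p. Called in either direction were 2 of the 6, against 36.3% of all tested genes. Called higher was 1 of the 6, against 14.9% of all tested genes, and called lower was 1 of the 6, against 21.3% of all tested genes. All 18-month libraries lay above all 2-month libraries for 4 of the 6 (Fabp4, Adipoq, Lpl and Pparg), an arrangement found in 33.9% of all tested genes. The reverse held for Plin4 and for 34.6% of all tested genes. The median log2 fold change was 1.54 over the 6 tested genes and −0.02 over all tested genes.

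**Figure D2:**
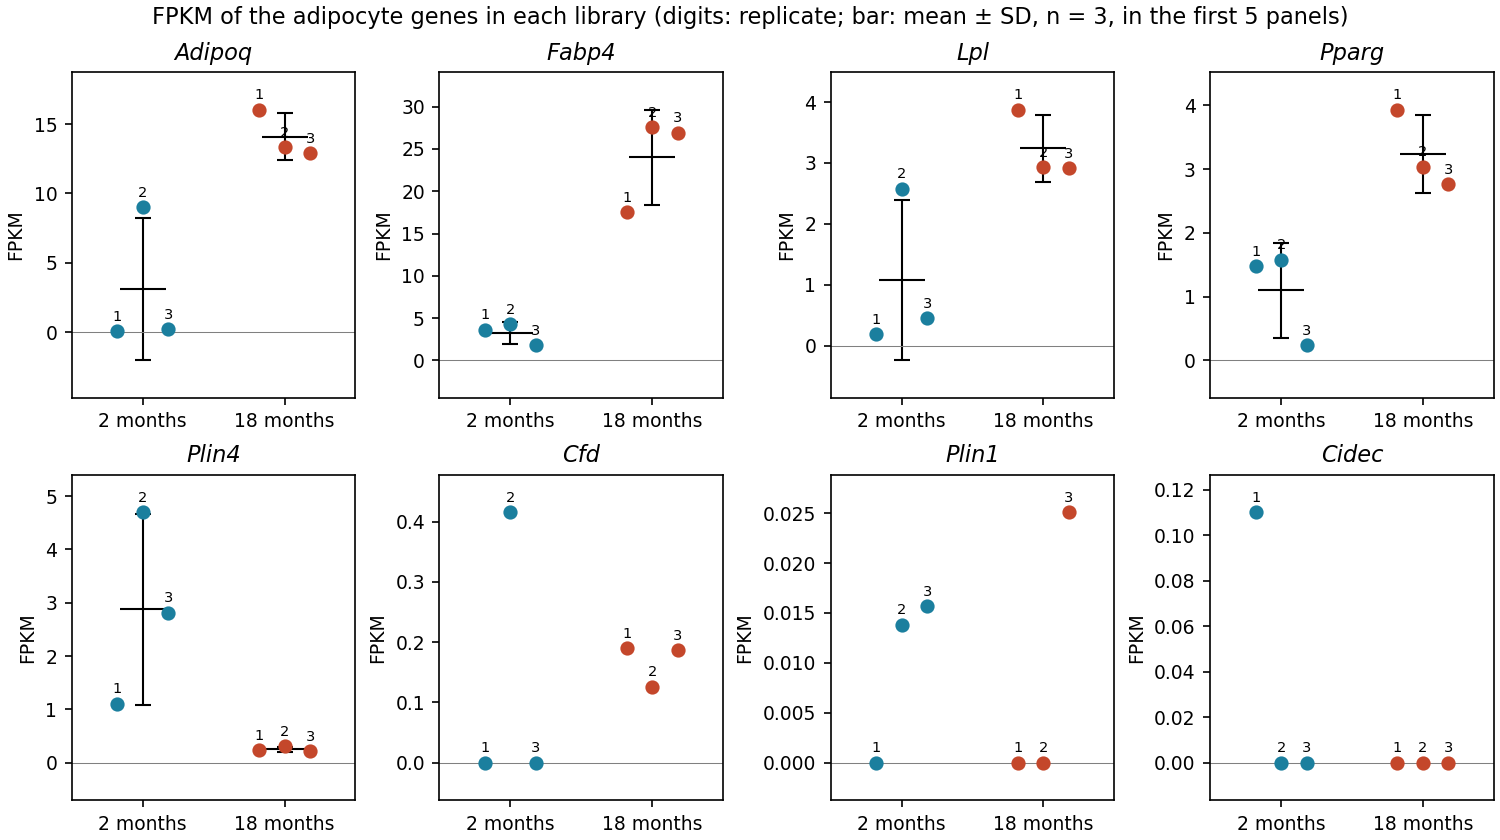
FPKM of the 8 adipocyte genes in the table, with 1 point per library, the replicate number beside it and the mean ± SD of 3 libraries for the first 5 genes. Fabp4, Adipoq, Lpl and Pparg were higher in each 18-month library than in any 2-month library, Plin4 was lower, and the Cfd, Plin1 and Cidec axes end below 0.5 FPKM.

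Pparg (ENSMUSG00000000440, chromosome 6, 115360951 to 115490399, plus strand) encodes PPAR gamma, the nuclear receptor that drives adipocyte differentiation. It is also expressed in macrophages. Its FPKM was 1.47, 1.58 and 0.240 in 2-month replicates 1, 2 and 3 and 3.93, 3.04 and 2.76 in the 18-month libraries. Replicate 3 was the low library of the 2-month group, replicate 2 was not high, and the ages did not overlap. The means were 1.10 ± 0.744 FPKM at 2 months and 3.24 ± 0.611 FPKM at 18 months (SD, n = 3). The log2 fold change was 1.50 (SE 0.66), which was not called (edgeR adjusted p = 0.104). It was called in 3 of 15 alternative settings, among them the one without 2-month replicate 3 (log2 fold change 1.03, edgeR adjusted p = 0.0309). Without 2-month replicate 2 its log2 fold change was 1.83 (edgeR adjusted p = 0.0732). The summed level of 12 macrophage markers was 13.4 to 138 FPKM in the 2-month and 352 to 359 FPKM in the 18-month libraries. Its part in the level of Pparg was not tested.

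Of the 2 fatty acid handling genes, Fabp4 was called higher and Lpl was not called. Fabp4 (ENSMUSG00000062515, chromosome 3, 10204088 to 10208576, minus strand) encodes the cytosolic fatty acid carrier also called aP2, which endothelial cells and macrophages express as well. Its FPKM was 3.60, 4.28 and 1.79 in 2-month replicates 1, 2 and 3 and 17.5, 27.6 and 26.9 in 18-month replicates 1, 2 and 3. Each 18-month library was above each 2-month library, and among the 2-month libraries replicate 2 was close to replicate 1. The means were 3.22 ± 1.29 and 24.0 ± 5.64 FPKM (SD, n = 3), a 7.14-fold difference in the fit. The log2 fold change was 2.84 (SE 0.37, edgeR adjusted p = 0.00269). Fabp4 was called in each of 15 alternative settings, with a log2 fold change between 2.51 and 3.07 and an adjusted p of at most 0.016. The summed level of 10 endothelial markers was 3.07, 64.3 and 9.23 FPKM in 2-month replicates 1, 2 and 3 and 43.3 to 46.1 FPKM in the 18-month libraries. Of these 10 markers 1 was called higher, Stab2, a receptor of sinusoidal endothelium. Replicate 2 was above the 18-month libraries for the endothelial sum and below them for Fabp4. The sum of 12 macrophage markers was 13.4, 138 and 46.3 FPKM in 2-month replicates 1, 2 and 3 and 352 to 359 FPKM in the 18-month libraries. The part of either cell type in the level of Fabp4 was not tested.

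Lpl (ENSMUSG00000015568, chromosome 8, 68880491 to 68906934, plus strand) encodes lipoprotein lipase, which frees fatty acids from circulating lipoproteins and is made by adipocytes, muscle and macrophages. Its FPKM was 0.184, 2.58 and 0.446 in 2-month replicates 1, 2 and 3 and 3.87, 2.93 and 2.91 in the 18-month libraries. Replicate 2 lay close to the lowest 18-month library, at 14.0 times replicate 1 and 5.78 times replicate 3, and the ages did not overlap. The means were 1.07 ± 1.31 and 3.24 ± 0.548 FPKM (SD, n = 3). The log2 fold change was 1.58 (SE 0.90), not past the threshold (edgeR adjusted p = 0.186). Without 2-month replicate 2 it was 3.24 and called (edgeR adjusted p = 0.00144), 1 of 2 calls in 15 alternative settings that ran from 1.09 to 3.24.

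Of the secreted products, Adipoq was readily detected in the 18-month libraries and in 2-month replicate 2, and Cfd was low in every library. Adipoq (ENSMUSG00000022878, chromosome 16, 23146536 to 23158028, plus strand) encodes adiponectin, a hormone of adipocytes that is also made by marrow stromal cells primed for the adipocyte fate. Its FPKM was 0.0654, 8.99 and 0.196 in 2-month replicates 1, 2 and 3, from 5, 727 and 16 counts. In the 18-month libraries it was 16.0, 13.3 and 12.9 FPKM, from 1488, 1159 and 1138 counts. Replicate 2 was thus 137.5 times replicate 1 and 46.0 times replicate 3, while the 18-month mean was 1.57 times replicate 2. The means were 3.08 ± 5.12 and 14.1 ± 1.69 FPKM (SD, n = 3). The ages did not overlap, and the log2 fold change was 2.19 (SE 1.59), not past the threshold (edgeR adjusted p = 0.286). Without 2-month replicate 2 it was 6.57 (edgeR adjusted p = 0.000173), so in edgeR the call for Adipoq rests on whether this library is kept. Over the 15 alternative settings the log2 fold change ran from 1.62 to 6.57, with 2 of them past both limits.

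Cfd (ENSMUSG00000061780, chromosome 10, 79890853 to 79892655, plus strand) encodes adipsin, the serine protease that starts the alternative complement pathway and that mouse adipocytes secrete in large amounts. It had 0, 23 and 0 counts in 2-month replicates 1, 2 and 3 and 12, 8 and 11 counts in the 18-month libraries. The ages overlapped, since replicate 2 was the highest of all libraries, at 0.416 FPKM against 0.126 to 0.190 FPKM in the 18-month libraries. The log2 fold change was 0.26 (SE 1.50, edgeR adjusted p = 0.896). Without replicate 2 both remaining 2-month libraries were at 0. The 18-month mean was 2.93 times the floor of 3 counts in those libraries, which serves as the lower bound of its fold over them.

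The 3 lipid droplet genes went their own ways. Transcripts of the main droplet proteins of a mature white fat cell were near 0 at both ages. Plin4 (ENSMUSG00000002831, chromosome 17, 56100591 to 56109803, minus strand) encodes perilipin 4, which coats small nascent droplets and is expressed in white fat, heart and skeletal muscle. Its FPKM was 1.10, 4.70 and 2.82 in 2-month replicates 1, 2 and 3 and 0.228, 0.306 and 0.210 in the 18-month libraries. Each 2-month library was above each 18-month library, so Plin4 ran against Fabp4 and Adipoq between the ages. The means were 2.87 ± 1.80 and 0.248 ± 0.0511 FPKM (SD, n = 3), an 11.9-fold difference in the fit. The log2 fold change was −3.57 (SE 0.54, edgeR adjusted p = 0.00409). Plin4 was called lower in each of 15 alternative settings, with a log2 fold change from −3.95 to −1.52 and an adjusted p of at most 0.0236. Beside it, the summed level of 10 skeletal muscle markers was 52.5 to 94.2 FPKM in the 2-month and 4.77 to 6.12 FPKM in the 18-month libraries, and 6 of the 9 tested were called lower. Tnni2, the fast skeletal troponin I and the most abundant of them, was at 44.0, 48.0 and 72.8 FPKM in the 2-month and 1.26, 0.462 and 0.615 FPKM in the 18-month libraries. The chondrocyte sum fell in the same direction, and the part of either in the level of Plin4 was not tested. Plin4 shares 17 exonic bases with Hdgfl2 on the other strand, and whether the counting used strand is not given in the sources used here.

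Plin1 (ENSMUSG00000030546, chromosome 7, 79720218 to 79732835, minus strand) encodes perilipin 1, the coat of the large droplet that guards it against lipases. It had 0, 4 and 5 counts in 2-month replicates 1, 2 and 3 and 0, 0 and 8 counts in the 18-month libraries, which is at most 0.0251 FPKM. Cidec (ENSMUSG00000030278, chromosome 6, 113424634 to 113435760, minus strand) encodes the protein that fuses droplets into a single large one. It had 13 counts in 2-month replicate 1 and 0 in each of the other 5 libraries. Over the 6 libraries Adipoq had 4533 counts in all, Cfd 54, Plin1 17 and Cidec 13. In the 18-month libraries alone the sums were 3785 for Adipoq, 31 for Cfd, 8 for Plin1 and 0 for Cidec. The ratio of Plin1 to Adipoq in FPKM, which is scaled by length, was 0, 0 and 0.00194 in the 18-month libraries. Fabp4, Adipoq, Lpl and Pparg were thus detected in every 18-month library, while the defining droplet genes of mature adipocytes were at or near 0, also in the libraries with the most Adipoq. For those genes the data go against the name of marrow adipocyte genes. A difference between the ages in Plin1 or Cidec was not detectable at this depth.

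The levels also differed in their proportions. In the 18-month libraries the order of FPKM was Fabp4, Adipoq, then Lpl and Pparg at about the same level (3.24 ± 0.548 and 3.24 ± 0.611 FPKM, SD, n = 3), then Plin4 and Cfd. Fabp4 was above Adipoq in each of these libraries, and Lpl and Pparg did not differ beyond their spread in FPKM. In counts Lpl was above Pparg, at 2729, 1935 and 1948 against 781, 567 and 523 in 18-month replicates 1, 2 and 3. FPKM between genes also depends on the length taken for each gene. The annotated exons cover 10478 bases for Lpl, 4489 for Fabp4, 2953 for Pparg and 1381 for Adipoq. The orders and ratios between genes given here hold for FPKM only. At 2 months the first gene was another in each library, Fabp4 in replicate 1, Adipoq in replicate 2 and Plin4 in replicate 3. The ratio of Fabp4 to Adipoq was 1.09, 2.07 and 2.08 in the 18-month libraries, and that of Lpl to Adipoq 0.242, 0.220 and 0.225. In 2-month replicate 2 the same ratios were 0.477 and 0.287. In replicates 1 and 3 they were 55.0 and 9.14 for Fabp4 and 2.81 and 2.28 for Lpl. Adipoq had only 5 and 16 counts in replicates 1 and 3, so every ratio with Adipoq is imprecise there. The ratio of Lpl to Adipoq in replicate 2 was thus near the 18-month values, while Fabp4 was not. The ratio of Adipoq to Plin4 was 0.0593, 1.91 and 0.0695 in the 2-month and 70.2, 43.5 and 61.4 in the 18-month libraries. Plin4 gave 23.5%, 31.9% and 56.4% of the counts of the 8 genes in 2-month replicates 1, 2 and 3, and 0.753% to 1.06% at 18 months. Together the 8 genes took 33.9, 106.1 and 37.0 CPM in the 2-month and 175.8, 209.7 and 204.9 CPM in the 18-month libraries.

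The genes that varied most like Adipoq over the libraries were ranked with the adipocyte genes described here left out. Among the 15961 other genes with a mean of at least 1 CPM, the 5 most like Adipoq were Dclk2, Myb, Eml4, H2-Ob and Slx4. Their r was between 0.998 and 0.999 over the 6 libraries (Pearson's r on log2(CPM + 1)). The added 1 narrows differences below 1 CPM, where Cfd lay in every library and Adipoq in 2-month replicates 1 and 3. Myb, a transcription factor of blood progenitors, was at 0.0304, 6.62 and 0.0671 FPKM in 2-month replicates 1, 2 and 3 and at 15.7 to 16.1 FPKM in the 18-month libraries. H2-Ob, an MHC class II chaperone of B cells, was at 0.0234, 1.98 and 0.0536 FPKM and at 3.46 to 4.94 FPKM in the same order. Like Adipoq, each was high in 2-month replicate 2 and low in replicates 1 and 3. Dclk2, the closest in r, was at 0.505, 1.24 and 0.5175 FPKM and at 1.31 to 1.43 FPKM in the same order. The log2 fold changes of Dclk2, Eml4 and Slx4 were 0.78, 0.72 and 0.48, smaller than the 2.19 of Adipoq. Of the adipocyte genes Lpl had an r of 0.986 with Adipoq, Fabp4 0.820, Pparg 0.778, Cfd 0.745 and Plin4 −0.55, all over the same 6 libraries. These values describe 6 libraries in which 1 step between high and low libraries sets most of r, and 114 genes had an r above 0.99.

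**Figure D3:**
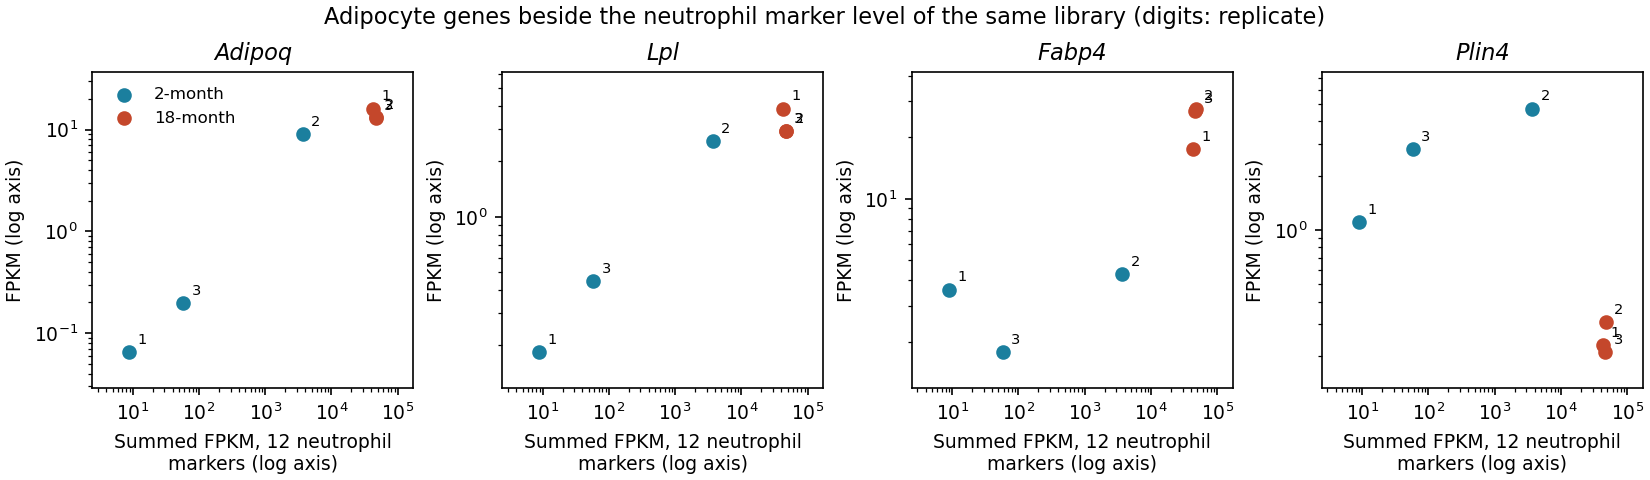
FPKM of Adipoq, Lpl, Fabp4 and Plin4 against the summed FPKM of 12 neutrophil markers in the same library, both on log axes, with 1 point per library and the replicate number beside it. Adipoq and Lpl in 2-month replicate 2 (neutrophil sum 3688 FPKM) lay near the 18-month libraries, Fabp4 lay near the other 2-month libraries, and Plin4 was lower in all 18-month libraries.

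Markers of other cell types differed between the libraries as well, in both directions. All 12 neutrophil markers and all 10 erythroid markers had every 18-month library above every 2-month library, yet edgeR called 0 of 12 and 4 of 10 with all libraries, and 12 and 10 without 2-month replicate 2. At an unadjusted p below 0.05 edgeR had 3 of the 12 neutrophil markers, DESeq2 called 11 of them and limma 12. S100a9, the most abundant neutrophil gene, was at 1.83, 1522 and 24.7 FPKM in the 2-month and 17751 to 19368 FPKM in the 18-month libraries. Of the macrophage markers 3 of 11 tested were called higher, and 8 without replicate 2, and of the endothelial markers 1 of 10, and 9 without it. Of 10 osteoblast and osteocyte markers 3 were called lower, with a median log2 fold change of −0.76. Without replicate 2 the same list had 3 called lower and 5 higher, with a median of 0.87. Of 10 synovial and tendon fibroblast markers 6 were called lower and 1 higher, and 6 and 2 without it. Over all tested genes 14.9% were called higher and 21.3% lower, and 33.9% had every 18-month library above every 2-month library. Without replicate 2, 5007 of all 21489 tested genes were called higher and 4576 lower. The most abundant markers showed the same split of the 2-month libraries, with Hbb-bs, a beta-globin, at 93.9, 2683 and 298 FPKM, C1qb of macrophages at 1.53, 16.9 and 7.38 FPKM, and Pecam1 of endothelium at 0.383, 11.5 and 2.04 FPKM. In the 18-month libraries these genes were at 11352 to 15495, 93.9 to 97.8 and 11.2 to 11.9 FPKM. Col2a1, the main collagen of cartilage, was at 1411, 3359 and 1845 FPKM at 2 months and 12.8 to 21.2 FPKM at 18 months, with its highest level in 2-month replicate 2. Ibsp of osteoblasts was at 1360 to 1621 FPKM and 182 to 194 FPKM, and lubricin (Prg4) of the joint surface at 2575 to 6475 FPKM and 266 to 1389 FPKM. The part of these cell types in the level of any adipocyte gene was not tested.

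**Figure D4:**
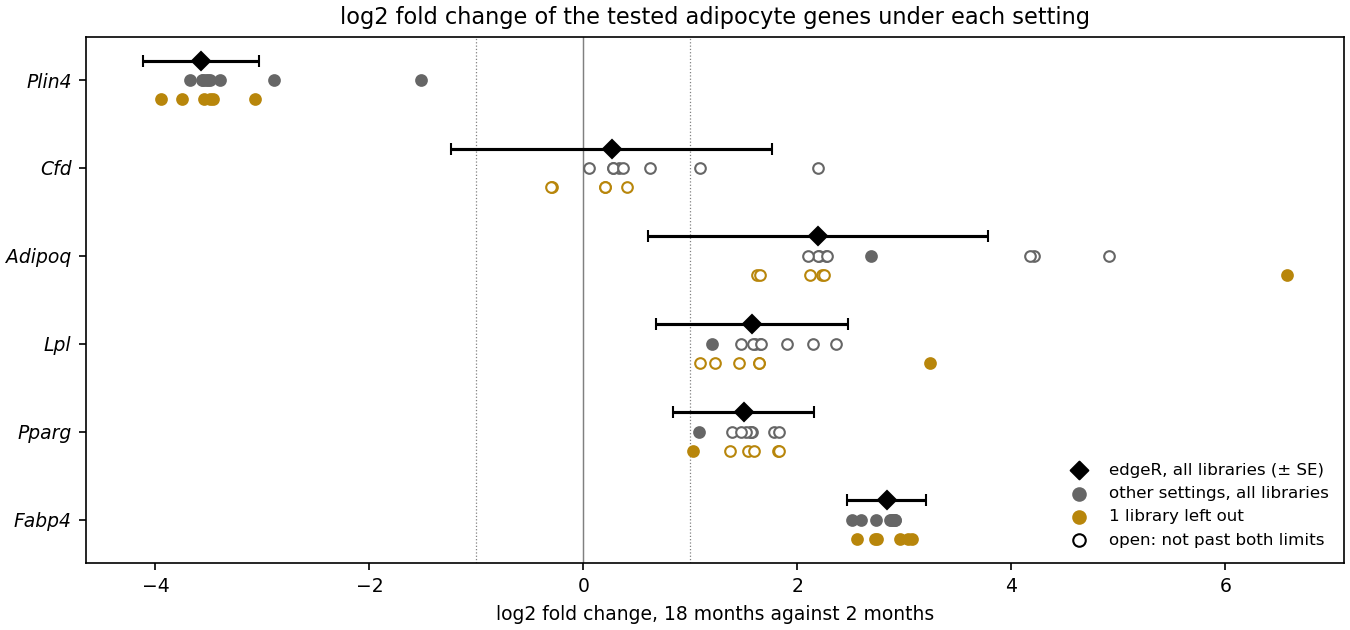
log2 fold change between the ages for the 6 tested genes, with the edgeR fit of all libraries as a diamond ± SE, the other settings with all libraries in grey (9, and 8 for Cfd) and the fits with 1 library left out in ochre. Filled circles are past both limits, and Cfd without 2-month replicate 2 is not drawn. Fabp4 and Plin4 were called in every setting, and Adipoq and Lpl moved to 6.57 and 3.24 without 2-month replicate 2.

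Around these genes, 11 lists of adipocyte and lipid genes were examined, 112 symbols of which 109 were in the table and 101 were tested. Called higher were 26 and lower 28, and 47 were not called, with a median log2 fold change of 0.18. Among all tested genes 14.9% were called higher and 21.3% lower. The calls differed from list to list, with 6 of 7 tested lipolysis genes higher, 7 of 14 synthesis genes lower, and droplet proteins called 3 in each direction. Without 2-month replicate 2 the numbers were 40 higher and 24 lower. In that fit 5007 of all 21489 tested genes were called higher and 4576 lower, so calls higher rose over all genes as well.

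Among 13 adipogenic transcription factors 1 was called higher, Cebpa, and 4 lower, Klf15, Rxra, Zfp423 and Srebf1 (median log2 fold change −0.57). Cebpa, the C/EBP factor that works with PPAR gamma and also drives granulocyte formation, was at 1.55, 5.15 and 1.65 FPKM in the 2-month and 23.0, 25.1 and 22.8 FPKM in the 18-month libraries. The ages did not overlap, and the log2 fold change was 3.04 (SE 0.49, edgeR adjusted p = 0.00465). Klf15, a Krüppel-like factor that promotes adipogenesis and is induced by glucocorticoids, went the other way, from 30.2, 7.44 and 30.5 FPKM to 3.41, 1.54 and 1.04 FPKM. Klf15 changed by −3.62 on the log2 scale (SE 0.75, edgeR adjusted p = 0.0104). Stat5b, the most abundant of the list, was not called (log2 fold change −0.47, edgeR adjusted p = 0.128).

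Of 8 tested inhibitors of adipogenesis 1 was called higher and 3 lower (Dlk1, Zfp521 and Ddit3). Gata2, which keeps preadipocytes undifferentiated and is also a factor of blood progenitors, rose from 0.167, 0.754 and 0.169 FPKM to 3.56, 5.76 and 4.50 FPKM. This is a log2 fold change of 3.61 (SE 0.66, edgeR adjusted p = 0.00709). Dlk1, the preadipocyte factor Pref-1, was low in all libraries, at 0.148 to 0.280 FPKM at 2 months and 0.0152 to 0.0322 FPKM at 18 months. It was called lower (log2 fold change −3.21, edgeR adjusted p = 0.00481) except in limma on log2(FPKM + 1). Ddit3, a C/EBP family member of the stress response that blocks its relatives, was the most abundant and fell by 1.57 on the log2 scale. The median of this list, −0.21, changed sign with limma on log2(FPKM + 0.1), to 0.07, with a replicate block, to 0.02, and without 2-month replicate 2, to 0.21.

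The other lipid droplet proteins divided evenly, with 3 of 10 called higher (Plin2, Plin5 and G0s2) and 3 lower (Cidea, Fitm2 and Hilpda). Plin2, the perilipin that coats droplets in cells of every kind, macrophages included, was at 9.39, 12.8 and 9.29 FPKM in the 2-month and 32.7, 31.8 and 29.7 FPKM in the 18-month libraries. Its log2 fold change was 1.51 (SE 0.13, edgeR adjusted p = 0.00114), and Plin2 and Plin4, 2 perilipins, thus moved in opposite directions. Plin5, the perilipin of oxidative tissue, was at 0.101 to 0.235 FPKM and 0.534 to 0.801 FPKM, with a call that 5 of 14 settings did not give. Cidea, a relative of Cidec that is best known from brown fat, was at 2.17, 0.847 and 2.27 FPKM in the 2-month libraries and at 0.0740, 0 and 0 FPKM in the 18-month libraries. It was called lower in all settings in which it was tested. The median of this list was 0.27, and −0.08 with limma on log2(TPM + 0.1).

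Of 7 tested lipolysis genes 6 were called higher, with a median log2 fold change of 1.58. Pnpla2, the lipase ATGL that takes the first fatty acid from triglyceride, was at 7.86, 7.16 and 7.43 FPKM at 2 months and 15.4, 21.5 and 20.5 FPKM at 18 months. The 2-month libraries lay close together, replicate 2 included, and the log2 fold change was 1.28 (SE 0.17, edgeR adjusted p = 0.00303). Lipe, Mgll and Abhd5, the lipases of the later steps and the ATGL activator, were also called. Adrb1 had the largest log2 fold change, 3.44, at no more than 0.297 FPKM in any library, and 7 of 14 settings did not call it. The gene of the list that was not called was Pde3b, the phosphodiesterase that dampens lipolysis under insulin, at 2.25 to 2.75 FPKM in the 2-month and 2.08 to 2.74 FPKM in the 18-month libraries. The numbers called higher in the list were 4 to 6 over the alternative settings.

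Fatty acid and triglyceride synthesis had 3 of 14 genes called higher and 7 lower, with a median log2 fold change of −0.97. The higher genes were Agpat2, Dgat1 and Dgat2, which act in triglyceride assembly. Dgat2, which adds the last fatty acid, was at 1.40, 2.52 and 1.25 FPKM and at 15.3, 11.8 and 12.1 FPKM (log2 fold change 2.85, SE 0.27, edgeR adjusted p = 0.00142). The lower genes were Gpam and Lpin1, which also act in triglyceride assembly, Acacb, Fasn and Scd1 of fatty acid metabolism, Pck1 and Me1. Me1, the malic enzyme that supplies NADPH for fatty acid synthesis, fell from 51.2, 23.6 and 39.4 FPKM to 4.31, 1.26 and 1.41 FPKM (log2 fold change −4.14, SE 0.64, edgeR adjusted p = 0.00417). Acly, the ATP citrate lyase and the most abundant of the list, had a log2 fold change of −0.04 (SE 0.12). With limma on log2(FPKM + 1) 3 genes were higher and 3 lower.

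Fatty acid uptake and the partners of lipoprotein lipase had 4 of 10 genes called higher (Cd36, Acsl1, Fabp5 and Slc27a4) and 2 lower (Vldlr and Cav1). Cd36, the fatty acid translocase of adipocytes, macrophages and capillaries, was at 0.924, 5.59 and 1.57 FPKM in the 2-month and 18.5, 20.1 and 21.7 FPKM in the 18-month libraries. Its log2 fold change was 2.86 (SE 0.66, edgeR adjusted p = 0.0148), and without 2-month replicate 3 the adjusted p was 0.0545. Vldlr, a lipoprotein receptor that works with Lpl, was at 18.0, 13.7 and 13.0 FPKM and at 3.27, 1.60 and 1.49 FPKM (log2 fold change −2.91, edgeR adjusted p = 0.00235). Slc27a4, a fatty acid transporter and the most abundant of the list by mean FPKM, had a log2 fold change of 1.04. Gpihbp1, which holds lipoprotein lipase on the capillary wall, was not called, with 0.0448, 3.32 and 0.456 FPKM in the 2-month and 2.24 to 4.19 FPKM in the 18-month libraries. Without 2-month replicate 2 it was called higher (log2 fold change 3.53, edgeR adjusted p = 0.0188), and the list then had 6 genes higher and 2 lower.

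Other adipokines and receptors had 1 of 10 called higher, Nrg4, and 4 lower, Rbp4, Apln, Sfrp5 and Cdh13. Rbp4, the retinol carrier that fat and liver secrete, had the largest log2 fold change by size of the 101 genes in these lists, from 983.5, 309.3 and 656.3 FPKM to 0.835, 0.298 and 0.549 FPKM. The log2 fold change was −10.26 (SE 0.79, edgeR adjusted p = 0.00101). Its level at 2 months was thus far above that of Adipoq, in libraries with 6359 FPKM or more of chondrocyte markers. The part of chondrocytes or any other cell type in the level of Rbp4 was not tested. The adiponectin receptors Adipor1 and Adipor2 were not called, with log2 fold changes of 0.53 and 0.01, and Adipor1 was at 52.9 to 54.6 FPKM in the 18-month libraries. T-cadherin (Cdh13), which binds adiponectin at the cell surface, was called lower, a call that 8 of 14 settings did not give. Lepr, the leptin receptor and a marker of the marrow stroma that gives rise to adipocytes, was at 4.78, 6.29 and 3.64 FPKM and at 8.33, 11.3 and 10.8 FPKM. Its log2 fold change of 0.98 was just short of the limit (SE 0.22, edgeR adjusted p = 0.0129), and it was called without 2-month replicate 2 at 1.18 (edgeR adjusted p = 0.00459).

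Of 8 other adipocyte-enriched genes tested 2 were called higher, Slc2a4 and Gpd1, and 4 without 2-month replicate 2. Slc2a4, the insulin-responsive glucose transporter GLUT4, was at 0.743, 1.29 and 0.698 FPKM in the 2-month and 3.15, 5.03 and 5.36 FPKM in the 18-month libraries (log2 fold change 2.25, SE 0.33, edgeR adjusted p = 0.00376). Car3, a carbonic anhydrase abundant in both fat and muscle, was at 0.120, 41.2 and 1.11 FPKM in 2-month replicates 1, 2 and 3 and at 13.8, 17.7 and 16.0 FPKM in the 18-month libraries. Replicate 2 exceeded every 18-month library, and the log2 fold change was 0.17 (edgeR adjusted p = 0.94), against 4.57 without it (edgeR adjusted p = 0.00631). For Car3, as for Adipoq, 2-month replicate 2 decided the call. Of 4 tested brown and beige fat genes 3 were called lower (2 without 2-month replicate 2), and alternative settings called Cpt1b in 8 of 15 and Cox7a1 in 5 of 15. Ucp1, their defining uncoupling protein, was at 0 FPKM in 5 libraries and at 0.0331 FPKM in the other. Ppargc1a, the coactivator of mitochondrial biogenesis, was called lower at 0.0726 to 0.189 FPKM against 0.0164 to 0.0314 FPKM (log2 fold change −2.58, edgeR adjusted p = 0.0102). Dio2, the most abundant of that list, was not called (log2 fold change −0.54).

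In the alternative complement pathway, to which adipsin belongs, 2 of 5 tested genes were called higher, C3 and Cfp, and 4 without 2-month replicate 2. C3, the central component that adipsin activates through factor B, was at 2.22, 16.0 and 1.05 FPKM in the 2-month and 129, 86.4 and 84.0 FPKM in the 18-month libraries. C3 had a log2 fold change of 3.94 (SE 1.06, edgeR adjusted p = 0.0256), and 4 of 15 settings did not call it, with adjusted p up to 0.0641. Cfd itself stayed at or below 0.416 FPKM in every library. Of 12 marrow stromal genes of the adipogenic lineage 3 were called higher (Kitl, Gas6 and Apoe) and 2 lower (Foxc1 and Pdgfra), and 8 and 1 without 2-month replicate 2. Kitl, the stem cell factor of the niche, was at 0.431, 3.40 and 0.624 FPKM and at 7.02, 8.98 and 9.17 FPKM (log2 fold change 2.48, SE 0.79, edgeR adjusted p = 0.043). Of 15 alternative settings 9 called it, and the adjusted p reached 0.114 in edgeR. Foxc1, a factor of the niche that cartilage also expresses, fell from 10.7, 8.82 and 10.3 FPKM to 2.67, 2.76 and 2.55 FPKM. Cxcl12, the chemokine by which these cells are known, was at 1.35, 38.7 and 1.42 FPKM in 2-month replicates 1, 2 and 3 and at 138, 146 and 147 FPKM in the 18-month libraries, the pattern of Adipoq. Its log2 fold change of 3.38 was not past the threshold (edgeR adjusted p = 0.0888) and was 6.60 without replicate 2 (edgeR adjusted p = 3.14e-05). Haptoglobin (Hp), the most abundant gene of the list, which neutrophils and liver also make, followed the same pattern, at 0.625, 48.1 and 1.31 FPKM and at 567.7, 457.3 and 458.4 FPKM (log2 fold change 4.89, edgeR adjusted p = 0.0581). Without replicate 2 Hp was called higher, with a log2 fold change of 8.87 (edgeR adjusted p = 8.36e-05).

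**Figure D5:**
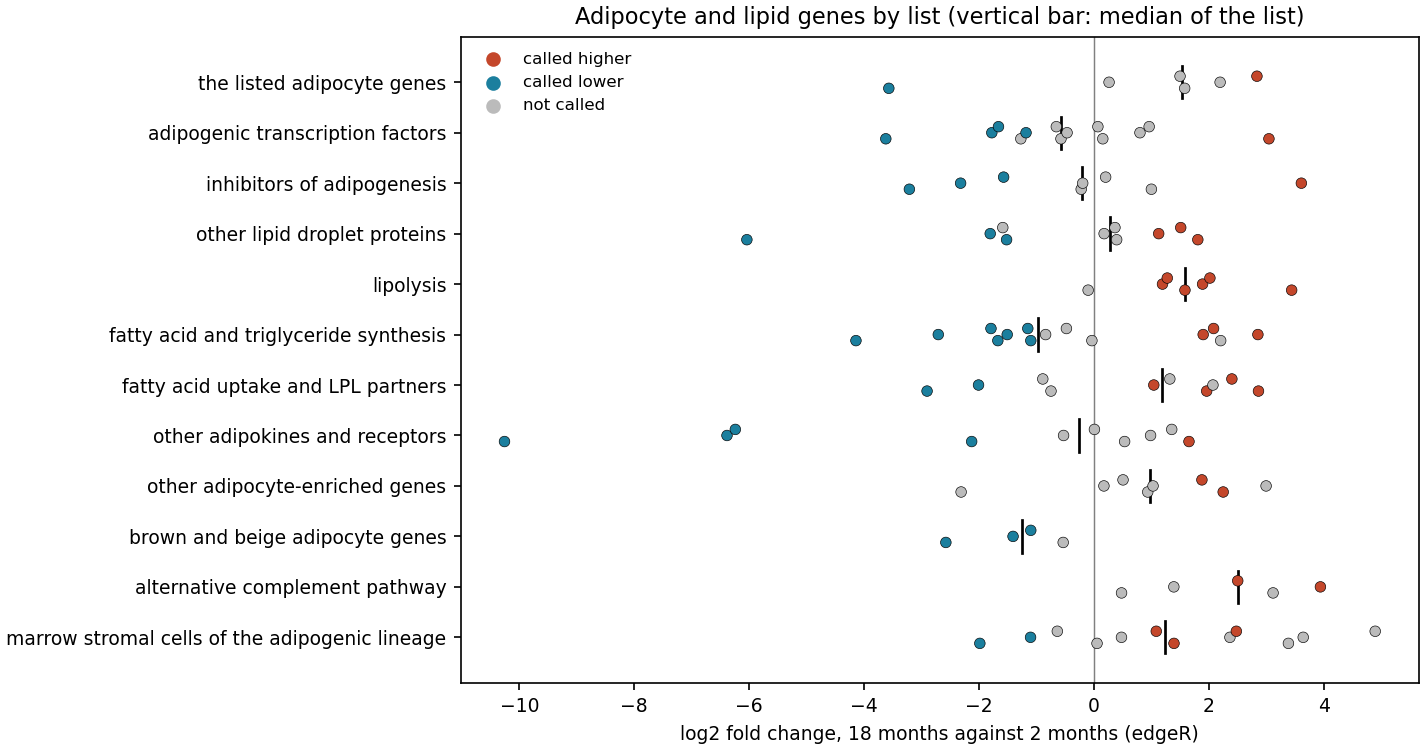
log2 fold change between the ages in edgeR for the tested genes of each list, with 1 point per gene, called genes in red (higher) or blue (lower) and the median of the list as a bar. Lipolysis genes lay to the right of 0 except Pde3b, while 7 of the 14 synthesis genes were called lower.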

How the data were processed

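Poly(A) RNA of articular cartilage was sequenced on an Illumina instrument from strand-specific libraries with molecular identifiers. The submitters' processing notes name cutadapt 1.9, HISAT2 2.0.4, UMI-tools, StringTie 1.3.4d, DESeq2 and edgeR, with no role given. The deposited table holds raw whole-number counts for each gene, which the authors did not normalize, and the authors' FPKM, scaled by transcript length and library size. Of 33971 gene IDs, 33865 were in GENCODE M21, 29627 with identical coordinates, so coordinates are those of GRCm38. No columns of per-sample values were left out. The 3 libraries of each age, numbered in the labels, were compared with edgeR 4.0.16 in R 4.3.3 (TMM normalization, filterByExpr, quasi-likelihood test, prior count 0.125, no replicate block), adjusted over 20397 tested genes. The SE of a log2 fold change is its size over the root of the F statistic. FPKM describes levels and counts carry the tests. Counting limits cover counting error only. Alternatives were other size factors, total counts, no filter, a minimum mean FPKM of 1, DESeq2 1.42.0, limma 3.58.1 on log2(FPKM + 0.1), log2(FPKM + 1) and log2(TPM + 0.1), a replicate block, and leaving out each library. Scripts were tested on simulated counts. Replicates of an age differed by 6.32 to 48.7 times the counting noise (median chi-square over expected), and each was kept as a separate library. The largest values, 48.7 and 36.4, were those of the pairs with 2-month replicate 2. Promoters are RefSeq, GRCm38.p6, matched by symbol, and Fabp4 and Lpl were not matched. The genes and lists were chosen with earlier results of these data known. Named in each list were the called genes with the largest rise and fall and the gene with the highest mean FPKM. Named as well were the 5 genes most like Adipoq (mean of at least 1 CPM), with the adipocyte genes described here left out of that ranking. Lepr, Cxcl12, Gpihbp1, Adipor1, Adipor2, Ucp1, Pde3b, and the remaining called genes given by name were named after their values were seen.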

Additional observations from a re-analysis of the deposited data

How the results depend on the processing

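Fabp4 was called higher and Plin4 lower in all 15 alternative settings. Other tested adipocyte genes were past both limits in some settings. With DESeq2 2 genes were called higher, beside 4414 of all 25941 tested genes. With limma on log2(FPKM + 1) 4 were called higher, beside 3041 of 21539. With 1 library left out 1 to 4 were called higher. The 4 were without 2-month replicate 2 (5007 of all 21489), and 2 were called without 2-month replicate 3 (2141 of 21356). Cfd was among the 4 called without replicate 2, with 0 counts in both remaining 2-month libraries. Cfd had a log2 fold change of −0.30 without 2-month replicate 1 and −0.30 without 2-month replicate 3, against 0.26 with all libraries. Without 2-month replicate 2 its fitted value was 6.27, which depends on the prior count because both other 2-month libraries were at 0, and is no bound. The cause was not tested. Of all genes 3047 were called higher, and 2095 to 5007 with 1 library left out, the most without 2-month replicate 2. With limma on log2(FPKM + 1) 2217 of all genes and 16 of the adipocyte and lipid genes in the wider lists were called lower, against 4354 and 28. Called higher in those lists were 26, and 19 to 40 with 1 library left out. Markers of other cell types called higher numbered 9, and 4 with no filter, 27 with DESeq2, 30 with limma on log2(FPKM + 0.1), 30 on log2(FPKM + 1), 29 on log2(TPM + 0.1), and 1 to 46 with 1 library left out, the most without 2-month replicate 2. Of the called genes 41.2% were higher, 52.2% without 2-month replicate 2, 50.6% and 57.8% with limma on log2(FPKM + 0.1) and log2(FPKM + 1). TPM rescaling moved the median of all genes to −0.33. Same-numbered libraries of the 2 ages deviated together with r of 0.0911, 0.0938 and −0.0869. Differently numbered libraries had r from −0.123 to 0.126, so these values cannot tell whether the numbers pair the samples. With a replicate block 6032 of all genes were called, 1 adipocyte gene higher and 1 lower. The 3 libraries per age, and the low counts of Plin1, Cidec and Cfd, limit what could be detected.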
